A study of Mus musculus with 40 samples.

Results

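The replication-dependent histone genes are the genes whose messenger RNA (mRNA) supplies histone protein while DNA is being copied. All rows of the expression table with a symbol of the forms H1f1 to H1f5, H2ac, H2bc, H3c or H4c followed by a number were taken, which gave 47 of 15958 genes. They comprised 5 H1, 10 H2A, 12 H2B, 10 H3 and 10 H4 genes. RNA was sequenced from 40 libraries of male C57BL/6 wild-type mice that had sham surgery or small bowel resection (SBR) at 8 weeks of age. SBR mice received vehicle or WUSTL0717, an agonist of the liver X receptor (LXR) that is retained in the gut, at 30 mg/kg by mouth every day for 7 weeks from 3 weeks after surgery, and sham mice received vehicle. Groups of 3 sham vehicle, 4 SBR vehicle and 4 SBR WUSTL0717 libraries were available for the duodenum and again for the post-anastomotic ileum, and groups of 5, 8 and 5 for the liver. The study kept the duodenum and terminal ileum and removed proximal small intestine, to an extent that the labels give as 50% to 60% and the methods higher. The labels do not say which libraries came from the same mouse, and no sham group received WUSTL0717.

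Core histones form the spool of the nucleosome, in which a tetramer of H3 and H4 is joined by dimers of H2A and H2B, and linker histone H1 binds the DNA where it enters and leaves. Cells transcribe these genes mainly in S phase. The mRNAs end in a conserved stem-loop instead of a poly(A) tail, and the stem-loop binding protein (SLBP) carries them through processing, translation and decay. In the intestine, dividing cells sit in the crypts, whereas most hepatocytes of an adult liver are at rest. The libraries were made from total RNA depleted of ribosomal RNA with random primers, so that transcripts without a poly(A) tail could be captured.

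The stem-loop is shown because it marks the members at the level of sequence. The pattern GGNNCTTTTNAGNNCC was searched on the transcript strand of a GENCODE annotation of GRCm38. It was present in an annotated transcript of 32 of the 47 members (68.1%) and of 46 of 21904 other protein-coding genes (0.21%), of which 12 were further genes with a histone name. Of the 15 members without it, 8 had gene models that held the coding sequence alone. The 32 sites took 6 forms, and 18 members shared that of H3c2. In the lines below, capitals mark the stem-loop and lower case the 5 bases on either side, printed as DNA from 5′ to 3′ on the strand of the gene.
H3c2, chr13:23752815-23752840, plus strand: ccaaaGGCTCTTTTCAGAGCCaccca
H2bc7, chr13:23573760-23573785, minus strand: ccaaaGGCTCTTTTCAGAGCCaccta
H1f2, chr13:23739507-23739532, plus strand: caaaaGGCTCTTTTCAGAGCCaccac
H3c3, chr13:23745042-23745067, minus strand: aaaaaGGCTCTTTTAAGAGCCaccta
H4c8, chr13:23531453-23531478, plus strand: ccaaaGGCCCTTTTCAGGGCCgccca
H4c9, chr13:22040961-22040986, minus strand: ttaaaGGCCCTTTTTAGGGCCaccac
H4c11, chr13:21735432-21735457, plus strand: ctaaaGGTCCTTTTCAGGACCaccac
H2ac20, chr3:96220413-96220438, minus strand: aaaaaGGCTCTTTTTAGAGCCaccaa
The forms with GGCC or GGTC at the 5′ arm were found in H4 genes, and the other types carried GGCT.

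The members were clustered. Chromosome 13 held 44 of them in 2 blocks, with 15 members between 21715763 and 22043676 and 29 between 23531050 and 23934156, and chromosome 3 held H2ac20, H3c15 and H4c14 between 96220361 and 96263311. In 8 pairs, neighbouring members were transcribed away from each other with 175 to 659 bases between the gene models, and 7 of these were pairs of an H2A and an H2B gene. The members are also near copies of each other. Between members of equal coding length, coding sequences were 93.6% to 99.3% identical among H3 genes and 88% to 98.4% among H4 genes. The sequencing reads were 150 bases long. In 43 of the 47 members at least 1 window of 100 bases occurred unchanged in another histone gene, and over all members a median of 32.2% of windows did so, with the highest share in H3c10 at 92%. Reads that matched several genes were left out of the gene counts of the authors, and whether the TPM values rest on those counts is not stated. The level of any single member is therefore uncertain, and the counts and medians over a type are safer than a single gene. H1f1, H1f5, H4c4 and H4c14 had no such shared window.

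Promoter stretches of 4 members that the results turn on are shown with their matches to common promoter motifs in capitals. Sequences are from RefSeq on GRCm38.p6, which matched 43 of the 47 members, and both strands were searched in the 250 bases before each RefSeq start. The first stretch lies between the start sites of the divergent pair H2ac15 and H2bc15, and the others are the 150 bases before the start.
H2ac15 and H2bc15, chr13:21753913-21754075, plus strand: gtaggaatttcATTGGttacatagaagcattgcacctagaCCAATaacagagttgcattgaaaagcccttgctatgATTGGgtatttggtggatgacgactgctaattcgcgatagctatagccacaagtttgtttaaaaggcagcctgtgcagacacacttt
H3c2, chr13:23752195-23752344, plus strand: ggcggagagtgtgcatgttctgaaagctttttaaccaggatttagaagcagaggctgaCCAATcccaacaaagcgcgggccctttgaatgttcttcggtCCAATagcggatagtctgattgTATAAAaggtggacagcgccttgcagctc
H4c12, chr13:21750554-21750703, minus strand: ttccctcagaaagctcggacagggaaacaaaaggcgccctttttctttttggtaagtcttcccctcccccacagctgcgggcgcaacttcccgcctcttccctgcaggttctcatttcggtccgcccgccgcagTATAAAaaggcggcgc
CCAAT, the letters of a CCAAT box (ATTGG on the other strand), was present in 36 of 43 member promoters (83.7%) and in 34.5% of 27025 promoters in the table. It was found in every H1, H2A and H2B promoter available but in 3 of 9 H4 promoters. TATAAA, the letters of a TATA box, was present in 22 of 43 (51.2%) against 13% of all promoters. The octamer ATTTGCAT was found in 5 of 10 H2A and 5 of 11 H2B promoters and in no other member, against 1.61% of all promoters. A match of letters is a description of the sequence and was not tested for binding.

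Values are log2 TPM (transcript abundance scaled for gene length and for the size of the library) after batch correction, and differences between groups are on that scale. Batch 1 held the intestinal libraries and batch 2 the liver libraries. Batch therefore cannot be told apart from organ, and levels were compared within a tissue or between duodenum and ileum only. The median over all genes ranged from 2.13 to 3.09 among duodenal libraries, 3.18 to 3.82 among ileal libraries and 3.05 to 3.77 among liver libraries, and no read totals were used here, so depth is unknown. Of 5 marker genes of duodenum, 4 were higher in sham duodenum than in sham ileum at an adjusted p under 0.05, and 3 of 3 ileal markers were lower. The corrected table does not allow the liver to be checked by level, because 99.4% of genes had means within 1 log2 unit between intestine and liver. The liver library SBR vehicle 7 had a mean over pancreatic acinar genes of 7.28, whereas the other liver libraries lay between 2.05 and 2.29.

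Histone mRNAs were measured in duodenum to ask what resection did to them in the bowel upstream of the anastomosis. After SBR with vehicle, every member tested was lower on average than after sham surgery. The median log2 difference over the 45 members that passed the filter on low values was -1.57, with a range of -2.19 to -0.70, and 70% of all 15093 genes tested were also below 0, with a median of -0.36. Relative to that general shift the median of the members was -1.20. No member passed an adjusted p under 0.05 in limma, nor did any other gene (0% of all genes, lower or higher), and the adjusted p of the members ran from 0.258 to 0.443. At an unadjusted p under 0.05, 35 of 45 members were lower, against 12.7% of all genes, and in 24 of 45 every SBR library was below every sham library, against 6.24%. In bulk tissue, fewer cells that make a transcript and less transcript per cell cannot be told apart. H2ac7 and H2bc1, of which the latter is known as a testis form, were listed but were too low to test in duodenum.

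The mean over all members was steady in sham duodenum, at 4.42, 4.42 and 4.43 in the 3 libraries. Means over a type varied more there, as for H1, at 5.45, 4.71 and 5.61. In SBR vehicle the mean over all members was 4.06, 3.31, 2.12 and 2.39. The groups did not overlap, but the first SBR library lay close to sham. For the H2A and H4 means that library lay above the lowest sham library, so those groups overlapped. In the sample list the sham libraries and the first SBR vehicle library come before the other SBR vehicle libraries. Whether they were handled apart is not stated, and the part of this order in the result was not tested. In SBR WUSTL0717 the means over all members were 3.59, 3.30, 3.52 and 2.45, within the range of SBR vehicle. The median of all genes was 2.62, 2.99 and 3.09 in sham and 3.08, 2.17, 2.61 and 2.13 in SBR vehicle. In the SBR vehicle library with the lowest mean over the members, 2.12, it was 2.61, close to the 2.62 of a sham library. The part of that median in the result was not tested.

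**Figure D1:**
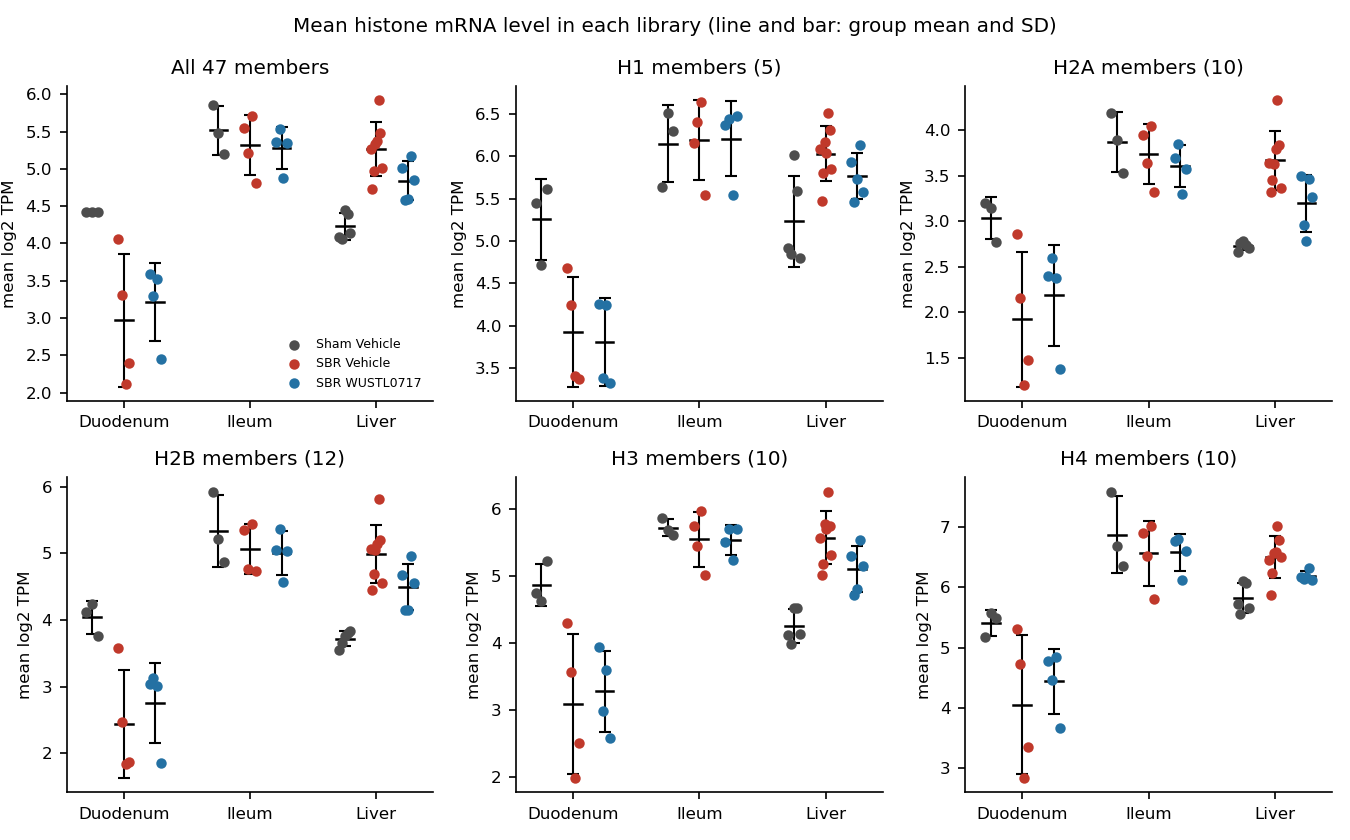
Mean log2 TPM over all 47 members and over each histone type in each library, by tissue and group, with points for libraries, lines for group means and bars for SD. In duodenum over all members the 3 sham libraries sit together near 4.42 and all SBR libraries lie below them, in ileum the groups overlap, and in liver all 8 SBR vehicle libraries lie above the 5 sham libraries.

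H3 and H2B members showed the largest medians in duodenum, at -1.81 and -1.84, and H2A the smallest, at -1.14. All 10 H3 members and 11 of 11 H2B members were lower at an unadjusted p under 0.05, as were all 5 H1 members, 5 of 9 H2A members and 4 of 10 H4 members. H2A also had the lowest mean of the types in sham duodenum, at 3.04, and small values are limited by the value added before the logarithm. Differences between the types were not tested. Within H3, the core histone whose tail carries many regulatory marks, H3c2 had the smallest p of all members. Its log2 TPM was 4.84, 4.90 and 5.20 in sham, 4.04, 3.49, 1.58 and 2.26 in SBR vehicle and 3.68, 3.02, 3.71 and 2.23 in SBR WUSTL0717. No SBR library reached the sham libraries. The log2 difference of SBR vehicle from sham was -2.14 ± 0.58 (SE), with an unadjusted p of 0.0030 and an adjusted p of 0.258 in limma.

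Other H3 genes showed the same order. H3c3 was 5.95, 5.75 and 6.32 in sham and 5.50, 4.29, 2.47 and 2.99 in SBR vehicle, a log2 difference of -2.19 ± 0.71 (SE). H3c6, the H3 member with the highest intestinal mean, was 6.35, 6.32 and 7.05 in sham and 5.99, 5.17, 3.49 and 3.90 in SBR vehicle. H3c11 differed by -1.99 ± 0.64 (SE) and H3c1 by -1.79 ± 0.52 (SE). In each of these genes the SBR vehicle 1 library was the nearest to sham.

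H2B genes code for the partner of H2A in the outer dimers of the nucleosome. H2bc15 was 5.39, 5.53 and 5.13 in sham, 4.75, 3.33, 2.61 and 2.47 in SBR vehicle and 3.99, 3.94, 3.77 and 2.33 in SBR WUSTL0717, with a log2 difference of SBR vehicle from sham of -2.06 ± 0.58 (SE, adjusted p = 0.271). H2bc9, at lower levels, was 2.84, 3.06 and 2.94 in sham and 2.37, 1.73, 1.21 and 1.05 in SBR vehicle, a log2 difference of -1.35 ± 0.38 (SE). Both genes separated the groups without overlap. H2bc4, the H2B member with the highest intestinal mean, overlapped: it was 5.81, 6.27 and 5.56 in sham and 5.92, 4.72, 4.06 and 3.35 in SBR vehicle. H2bc3 differed by -1.93 ± 0.65 (SE) and overlapped as well.

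Among H2A genes, H2ac15 was 4.68, 4.53 and 4.79 in sham and 4.06, 3.42, 1.99 and 2.42 in SBR vehicle, a log2 difference of -1.69 ± 0.53 (SE) without overlap. H2ac4 and H2ac20 differed by -1.58 ± 0.58 (SE) and -1.08 ± 0.42 (SE) and overlapped. H4, the partner of H3, had the largest SD of the type mean among the SBR vehicle libraries, at 1.15. H4c8 had the highest level of all members in sham duodenum, at 7.43, 8.40 and 7.56, and was 7.88, 6.96, 4.52 and 5.52 in SBR vehicle, so that 1 SBR library lay within the sham range. H4c12 was 5.76, 6.28 and 6.92 in sham and 5.95, 4.98, 2.94 and 3.44 in SBR vehicle, a log2 difference of -1.99 ± 0.67 (SE). H4c4 and H4c6 differed by -1.13 ± 0.59 (SE) and -1.68 ± 0.67 (SE).

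Of the linker histones, which compact the DNA between nucleosomes, H1f1 was 5.32, 4.77 and 4.81 in sham and 4.34, 4.10, 2.45 and 3.14 in SBR vehicle, a log2 difference of -1.46 ± 0.48 (SE). H1f2, the H1 gene with the highest level, was 7.12, 6.28 and 7.25 in sham and 6.05, 5.82, 5.48 and 4.62 in SBR vehicle. Neither gene overlapped between these groups. H1f4 and H1f5 differed by -1.45 ± 0.50 (SE) and -1.29 ± 0.50 (SE) and did overlap. The number of members called rested on 1 library: without duodenum SBR vehicle 1, 22 of 45 members were lower at an adjusted p under 0.05, against 3.5% of all genes, and the median was -1.98. With weights that let libraries differ in reliability, 34 were lower, against 15.2% of all genes. In the unmoderated test of the 2 groups, 22 of 45 members were lower at an unadjusted p under 0.05, against 6.18% of all genes.

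**Figure D2:**
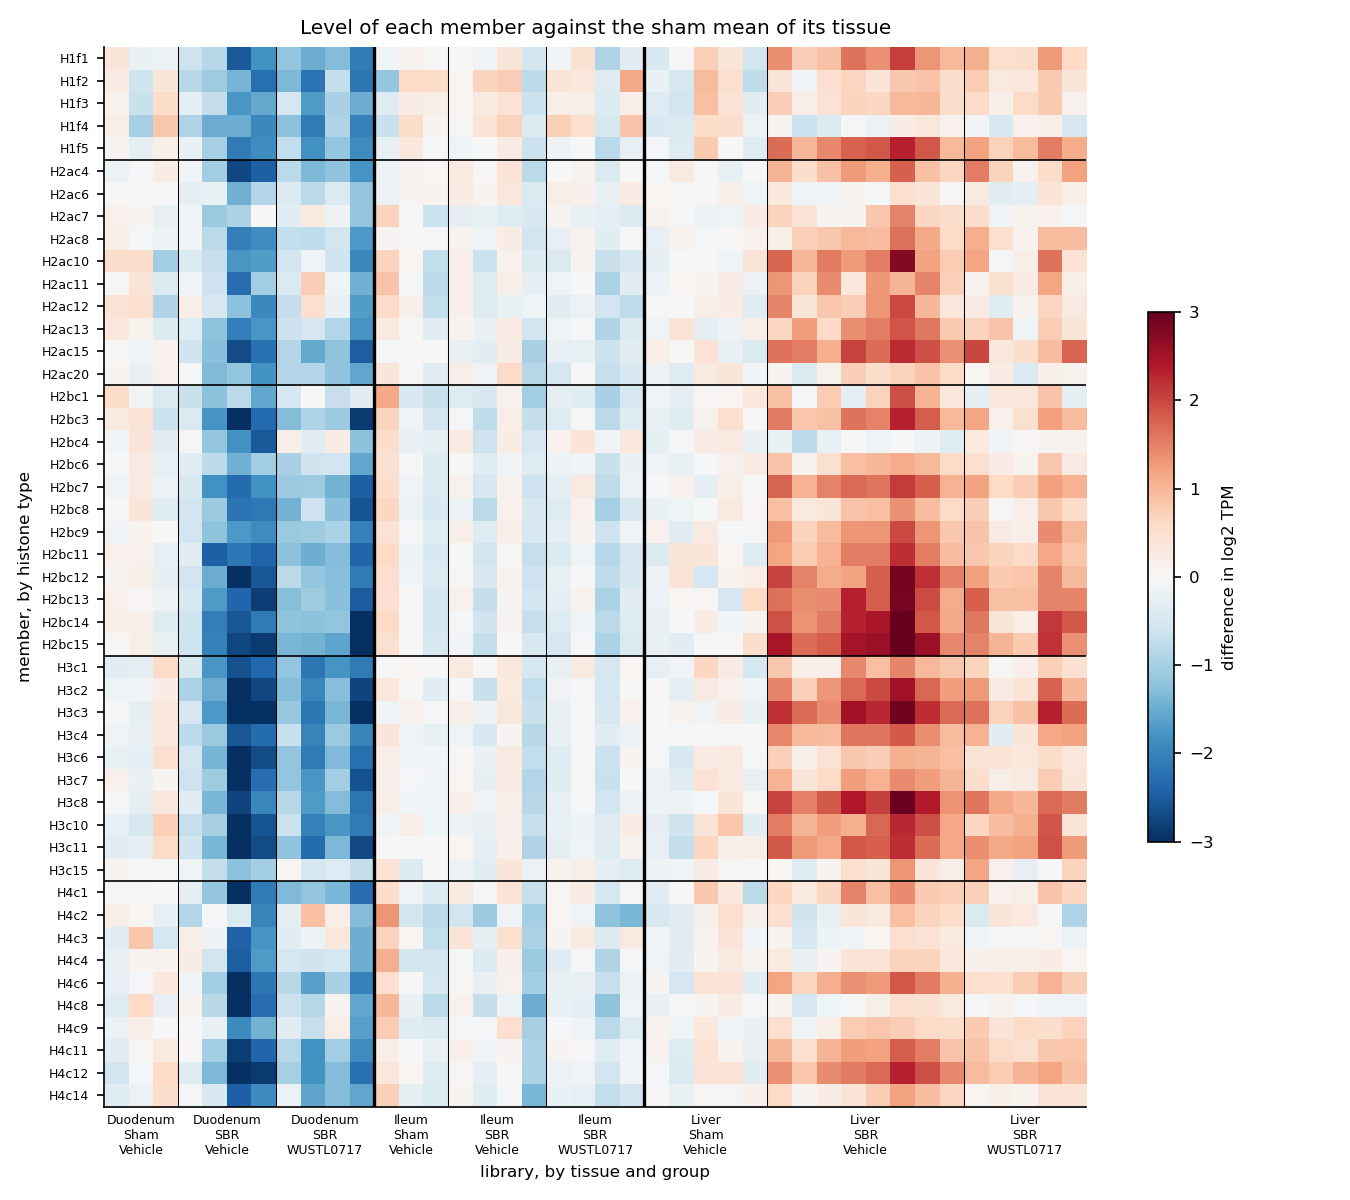
Log2 TPM of each member in each library minus the mean of that member over the sham libraries of the same tissue, with members in rows by histone type and libraries in columns, and colours that stop at 3 log2 units either way. Duodenal SBR columns are mostly below sham with SBR vehicle 1 the palest, ileal columns are near 0, and liver SBR columns are mostly above sham.

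WUSTL0717 was compared with vehicle after SBR to ask whether the drug moved the members. In duodenum the median log2 difference was 0.22, where that of all genes was 0.04. Of the 45 members 36 were above 0 and 9 below, against 45.7% of all genes below 0. No member passed at an adjusted p under 0.05 (background 0.252% higher and 0.00663% lower) or at an unadjusted p under 0.05 (3.66% higher and 1.65% lower). H2bc4 had the smallest p: in SBR WUSTL0717 it was 6.06, 5.57, 6.10 and 4.66, a log2 difference from vehicle of 1.08 ± 0.55 (SE, unadjusted p = 0.070). In the other direction H1f2 differed by -0.22 ± 0.47 (SE). The groups overlapped for all 45 members (background 1.05% without overlap lower and 2.11% higher). The median depended on single libraries, and ran from -0.10 without SBR vehicle 3 to 0.59 without SBR vehicle 1.

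SBR WUSTL0717 was also set against sham, a comparison that shares the sham libraries with the one above. The median was -1.40 over the 45 members, all below 0 (background 67.2%), and 33 of 45 had every library lower, against 12.8% of all genes. At an unadjusted p under 0.05, 30 of 45 were lower (background 12%), and at an adjusted p under 0.05 none was (background 0.053%), whereas library weights called 14 lower, against 5.04% of all genes. No member was higher at an adjusted p under 0.05 (background 0.749%), at an unadjusted p under 0.05 (4.95%) or without overlap (5.58%). H3c1 had the smallest p, at 4.87, 4.89 and 5.75 in sham and 3.98, 3.00, 3.41 and 3.05 in SBR WUSTL0717, a log2 difference of -1.81 ± 0.52 (SE, adjusted p = 0.158).

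In the ileum, the segment below the anastomosis, the members did not separate the groups. The mean over all members was 5.86, 5.48 and 5.21 in sham, 5.55, 5.21, 5.71 and 4.81 in SBR vehicle and 5.36, 5.53, 4.88 and 5.35 in SBR WUSTL0717. These ranges overlap throughout. The median log2 difference of SBR vehicle from sham was -0.20, with a range of -0.70 to 0.19 and 42 of 47 members below 0, whereas 42.3% of all 15772 genes were below 0 and their median was 0.07. No member passed an adjusted p under 0.05 in limma (background 0.108% lower and 0.241% higher) or an unadjusted p under 0.05 (background 2.94% lower and 5.52% higher), and every member overlapped (background 2.77% of genes without overlap lower and 6.73% higher).

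H4c2 and H1f4 had the smallest p in either direction in ileum, at -0.70 ± 0.53 (SE) and 0.19 ± 0.42 (SE). H3c2, which had led in duodenum, was 6.09, 5.76 and 5.40 in sham ileum and 5.76, 5.09, 6.04 and 5.02 in SBR vehicle. H2bc15 was 7.26, 6.78 and 6.29 in sham and 6.69, 6.06, 6.76 and 6.29 in SBR vehicle. Both genes overlapped between the groups. WUSTL0717 against vehicle gave a median of -0.06, with 31 of 47 members below 0 (background 49.6%). No member passed an adjusted p under 0.05 (0% of all genes lower and 0.0697% higher) or an unadjusted p under 0.05 (2.75% lower and 4.12% higher), and all overlapped (1.27% without overlap lower and 2.56% higher). Against sham the median was -0.26, with 41 of 47 below 0 (background 44.2%) and again no member at an adjusted p under 0.05 (0.514% lower and 1.66% higher) or an unadjusted p under 0.05 (4.35% lower and 9.75% higher). A single member, H2ac15, did not overlap and was lower, by -0.37 ± 0.29 (SE), where the background was 3.73% lower and 9.46% higher. The smallest p in each direction were those of H2ac20, at -0.36 ± 0.32 (SE), and H2bc4, at 0.34 ± 0.31 (SE), against vehicle, and of H2bc15, at -0.48 ± 0.32 (SE), and H1f4, at 0.39 ± 0.42 (SE), against sham.

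**Figure D3:**
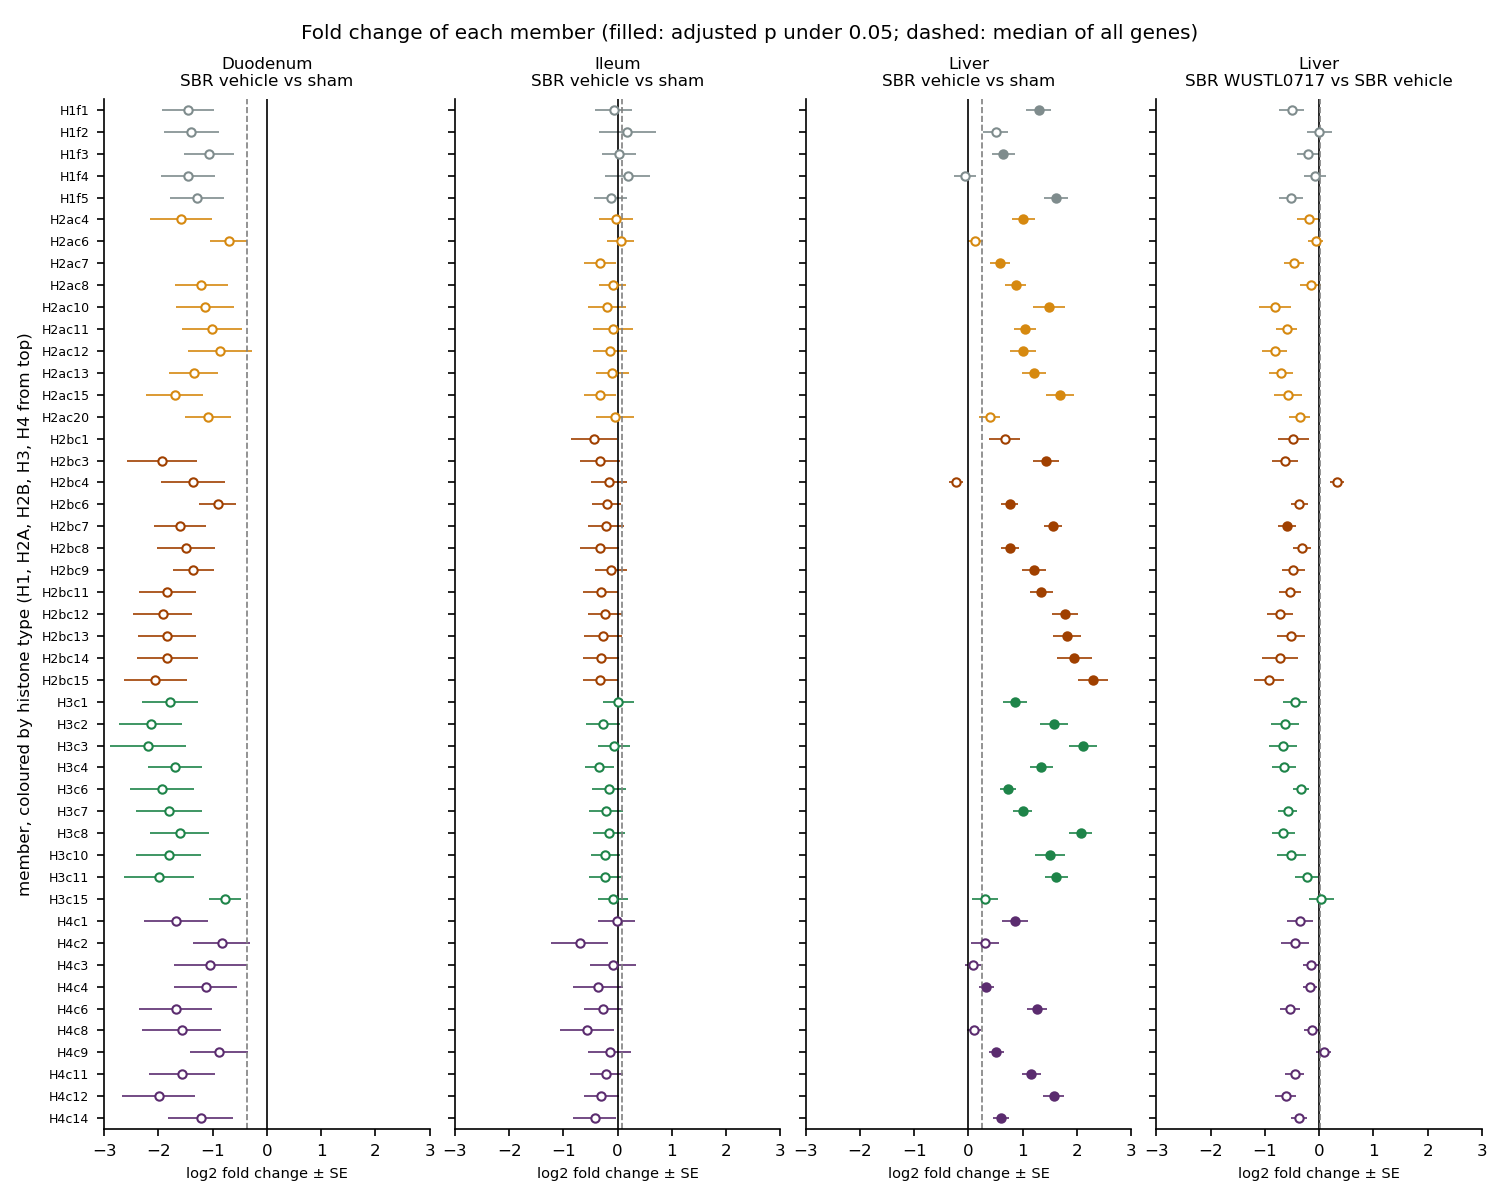
Log2 difference of SBR vehicle from sham for each member in duodenum, ileum and liver, and of SBR WUSTL0717 from SBR vehicle in liver, with bars of 1 SE, filled points at an adjusted p under 0.05 and a dashed line at the median of all genes tested. The duodenal points lie between -2.19 and -0.70 and none is filled, the ileal points lie near 0, 37 of the 47 liver points are filled after SBR, and 1, H2bc7, is filled for WUSTL0717.

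The effect of SBR was compared between duodenum and ileum by the interaction of region and surgery over the 22 intestinal libraries. The difference was below 0 in all 47 members, against 71.6% of 15923 genes, with a median of -1.36 where the median of all genes was -0.44. At an unadjusted p under 0.05 it was lower in duodenum for 24 members (background 11.2%), and at an adjusted p under 0.05 for none (background 0.0314%), whereas library weights called 26, against 11.7% of all genes. H3c1 had the smallest p, with a difference of -1.80 ± 0.60 (SE) and an adjusted p of 0.262. The count at an unadjusted p under 0.05 ran from 9 without duodenum SBR vehicle 3, against 9.27% of all genes, to 36 without duodenum SBR vehicle 1, against 22.7%. It was 5 of 47 after centring on library medians (4.76%) and 7 after quantile normalization (6.61%), so that it depended on the scaling of libraries, and 40 with library weights (30%). For WUSTL0717 against vehicle the difference between the regions had a median of 0.29, with no member at an unadjusted p under 0.05 (background 1.25% lower and 2.08% higher).

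Between the regions themselves, members were lower in duodenum than in ileum already after sham surgery. All 47 were below 0 (background 74.3%), with a median of -1.003 where the median of all genes was -0.52. In 38 members every duodenal library lay below every ileal library (background 30.8%), 27 passed an unadjusted p under 0.05 (25.1%) and 6 an adjusted p under 0.05 (10.8%), so the share called at the adjusted threshold was near that of all genes. The member with the smallest p was H2bc4, at 5.81, 6.27 and 5.56 in duodenum and 8.35, 7.60 and 7.53 in ileum, a log2 difference of -1.95 ± 0.52 (SE, adjusted p = 0.0153). H2ac20, H2bc11, H4c4 and H4c9 were also lower at an adjusted p under 0.05, by -1.51 ± 0.41 (SE), -1.55 ± 0.47 (SE), -1.78 ± 0.58 (SE) and -1.55 ± 0.52 (SE). Without ileum sham 1 none of the members passed an adjusted p under 0.05, against 8.21% of all genes lower, and 8 passed an unadjusted one (23.2%), with a median of -0.93. Library weights called 28, against 28.2% of all genes. The count at an unadjusted p under 0.05 was 7 after centring on library medians (12%) and 15 after quantile normalization (14%), and 41 with library weights (37.7%).

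After SBR with vehicle all 47 members were lower in duodenum at an adjusted p under 0.05, against 50.2% of all genes, and in 46 the regions did not overlap (37.6%). The median was -2.49 and that of all genes -0.98. H2bc11 was 4.03, 1.92, 2.19 and 1.97 in duodenum and 5.91, 5.34, 5.94 and 5.23 in ileum, a log2 difference of -3.08 ± 0.41 (SE, adjusted p = 8.32e-06). H2bc15, H3c1, H2bc12 and H2ac20 followed, at -3.16 ± 0.45 (SE), -2.81 ± 0.39 (SE), -2.98 ± 0.42 (SE) and -2.54 ± 0.36 (SE). With WUSTL0717 the median was -2.22, 45 members were lower at an adjusted p under 0.05 (48.7%) and 43 did not overlap (41.4%), among them H3c1, at -2.71 ± 0.39 (SE), and H1f4, at -2.84 ± 0.43 (SE). These comparisons share their libraries with the ones within each region.

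In the liver, which receives blood from the bowel through the portal vein, members were higher after resection. After SBR with vehicle 37 of 47 rose at an adjusted p under 0.05, against 37.4% of all 15901 genes, and none fell in this fit (4.47%). In 27 members every SBR library was above every sham library, against 15.6% of all genes, and 39 were higher at an unadjusted p under 0.05 (44.4%) and none lower (5.78%). The median log2 difference was 1.01, with a range of -0.23 to 2.29, where the median of all genes was 0.25. Relative to that shift the members were higher by a median of 0.77. The mean over all members was 4.09, 4.06, 4.45, 4.40 and 4.14 in sham and had a lowest value of 4.74, a median of 5.31 and a highest value of 5.92 over the 8 SBR vehicle libraries, so that the groups did not overlap.

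H3 and H2B again had the largest medians, at 1.42 and 1.39, followed by H2A at 1.01, H1 at 0.64 and H4 at 0.56. The members that rose were 9 of 10 in H3, 10 of 12 in H2B, 8 of 10 in H2A, 7 of 10 in H4 and 3 of 5 in H1. H3c8 had the smallest p. Its log2 TPM was 3.55, 3.55, 3.64, 4.07 and 3.68 in sham, and over the SBR vehicle libraries it was 5.05 at the lowest, 5.74 at the median and 6.65 at the highest. The groups did not overlap, and the log2 difference was 2.07 ± 0.21 (SE, adjusted p = 5.25e-07). H2bc15 had the largest rise, from 4.10, 3.99, 4.26, 4.33 and 4.84 in sham to between 5.75 and 7.61 in SBR vehicle, a log2 difference of 2.29 ± 0.27 (SE, adjusted p = 2.42e-06).

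H2bc7 was 3.30, 3.48, 3.08, 3.57 and 3.35 in sham and between 4.39 and 5.46 in SBR vehicle, a log2 difference of 1.56 ± 0.17 (SE, adjusted p = 7.19e-07). H3c3 rose by 2.11 ± 0.25 (SE) and H4c12 by 1.57 ± 0.19 (SE). All 3 genes separated the groups without overlap. Among the other members named above, H3c2 rose by 1.58 ± 0.26 (SE), H3c11 by 1.62 ± 0.21 (SE), H2ac15 by 1.69 ± 0.25 (SE), H1f5 by 1.62 ± 0.23 (SE), H1f1 by 1.30 ± 0.23 (SE), H4c6 by 1.26 ± 0.18 (SE) and H2bc3 by 1.43 ± 0.24 (SE).

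Several members rose by less than the median of the members in liver or did not rise. H4c8, the H4 member with the highest intestinal mean, was 8.50, 8.67, 8.81, 8.94 and 8.68 in sham and between 8.21 and 9.19 in SBR vehicle, a log2 difference of 0.10 ± 0.14 (SE, adjusted p = 0.573). H2bc4 was 7.17, 7.40, 7.70, 7.72 and 7.25 in sham and between 6.67 and 7.47 in SBR vehicle, a log2 difference of -0.23 ± 0.13 (SE, adjusted p = 0.15). H1f4 differed by -0.06 ± 0.20 (SE), H1f2 by 0.50 ± 0.23 (SE) and H4c4 by 0.33 ± 0.13 (SE, adjusted p = 0.0485), and only the last of these passed. Leaving out 1 library at a time gave between 35 and 40 members higher with an adjusted p under 0.05, against 28.9% to 52.3% of all genes. Centring on library medians called 33 members higher and 1, H2bc4, lower (20.4% and 28.8% of all genes), and quantile normalization 35 higher and H2bc4 lower (22.5% and 26.8%).

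With WUSTL0717 after SBR, most members were lower in liver than with vehicle, but groups overlapped in every member (background 0.308% without overlap lower and 1.23% higher). The median log2 difference was -0.48 where that of all genes was 0.02, 43 of 47 members were below 0 (background 45.2%), and 26 were lower at an unadjusted p under 0.05 (background 8.72%), or 15 in the unmoderated test of the 2 groups, against 7.18% of all genes. A single member, H2bc7, fell at an adjusted p under 0.05 (background 2.66%). It was 3.94, 4.10, 4.41, 4.56 and 4.59 in ascending order with WUSTL0717, a log2 difference from vehicle of -0.60 ± 0.17 (SE, adjusted p = 0.0484). H2bc15 differed by -0.93 ± 0.27 (SE, adjusted p = 0.062) and H3c8 by -0.66 ± 0.21 (SE). H2bc4 was the single member higher at an unadjusted p under 0.05 (background 8.5%), by 0.32 ± 0.13 (SE, adjusted p = 0.187).

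The number called in that comparison depended on the library set and the scaling. Without SBR vehicle 2 or without SBR WUSTL0717 4, 7 members were lower, against 4.3% and 5.22% of all genes, and H2bc7 itself missed the threshold when any of 10 of the 13 libraries was left out. Quantile normalization called 25 members lower, against 8.48% of all genes, and library weights 29, against 13.8%. Centring on the library median called 20 lower, against 8.19%, and H2bc4 higher, against 11.5%. The mean over all members was 5.01, 4.58, 4.60, 5.17 and 4.85 with WUSTL0717, between sham and the median of SBR vehicle. Against sham, which shares these libraries, 23 members rose at an adjusted p under 0.05 (background 27.9%), with a median of 0.59, and 13 had every library higher (27.4%). H3c8 was 1.40 ± 0.24 (SE) higher than sham, H3c11 1.39 ± 0.24 (SE), H3c3 1.44 ± 0.28 (SE), H2bc13 1.30 ± 0.28 (SE) and H2bc7 0.97 ± 0.18 (SE), each without overlap. Without liver SBR WUSTL0717 4, 13 members were higher, against 14.8% of all genes. With centring on the library median 13 were higher and 2 lower (10.7% and 8.93% of all genes), and with quantile normalization 12 and 1 (11.2% and 8.81%).

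The divergent pairs allowed neighbours whose starts face a common stretch of DNA to be set side by side. H2ac15 and H2bc15, whose intervening sequence is printed above, differed from sham by -1.69 and -2.06 in duodenum, -0.33 and -0.32 in ileum and 1.69 and 2.29 in liver. In H2ac12 and H2bc12 the values were -0.86 and -1.92 in duodenum and 1.00 and 1.78 in liver. In H2ac6 and H2bc4 they were -0.70 and -1.37 in duodenum and 0.13 and -0.23 in liver. In the 6 H2A and H2B pairs with both genes tested in duodenum, the H2B gene had the lower log2 difference each time. In each of these pairs the H2A gene had the lower log2 TPM in sham duodenum. H2ac12 was 2.18, 2.27 and 0.88 there, and H2bc12 4.10, 4.19 and 3.72. Small values are limited by the value added before the logarithm, and its part in this order was not tested. Because the copies share sequence, these values are not independent of each other.

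Annotated transcript length varied widely among members, from models of the coding sequence alone to long ones, and 12 had a transcript longer than 1000 bases. In liver after SBR these 12 had a median log2 difference of 0.55 and 7 rose, whereas the 35 shorter members had a median of 1.26 and 30 rose. Of all genes 37.4% rose in that comparison, with a median of 0.25. In duodenum the medians were -1.29 and -1.60, and with WUSTL0717 against vehicle in liver -0.19 and -0.52. Across members, Spearman's rho between the longest annotated transcript and the log2 difference was 0.37 in duodenum, 0.39 in ileum, -0.49 in liver and 0.51 for WUSTL0717 in liver, over 45 members in duodenum and 47 elsewhere. Members are not independent replicates, since they share libraries and sequence, and a longer model also changes how reads are divided by length. Members with an annotated stem-loop had a median of 0.81 in liver and those without one 1.501, and -1.496 and -1.64 in duodenum.

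**Figure D4:**
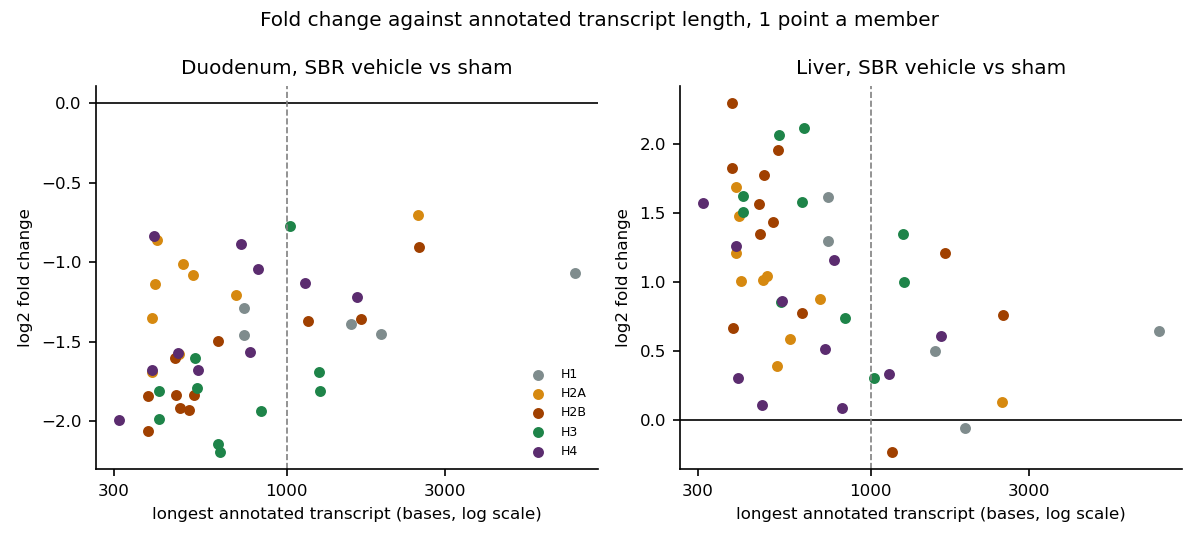
Log2 difference of SBR vehicle from sham against the longest annotated transcript of each member (bases, log axis), in duodenum and liver, coloured by histone type, with a dashed line at 1000 bases. In liver the points right of the line are lower as a group, with a median of 0.55 against 1.26 to its left.

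Genes that work with histones were taken as lists and are given beside the shares over all genes in the same comparisons. After SBR with vehicle these were 70% below 0, 12.7% lower at an unadjusted p under 0.05 and none at an adjusted one in duodenum, with a median of -0.36, and 37.4% risen in liver, with a median of 0.25. Of the genes of G2 and mitosis, 20 of 20 tested had values below 0 in duodenum, with a median of -0.94 and 14 at an unadjusted p under 0.05, and 22 of 22 rose in liver, with a median of 1.30. Mki67, a marker of cycling cells, averaged 3.52 ± 0.13 (SD, n = 3) in sham duodenum and 2.13 ± 0.70 (SD, n = 4) in SBR vehicle, and 2.44 ± 0.06 (SD, n = 5) in sham liver and 4.47 ± 0.46 (SD, n = 8) in SBR vehicle. The log2 differences were -1.39 ± 0.46 (SE, adjusted p = 0.274) and 2.03 ± 0.27 (SE, adjusted p = 7.42e-06), and in ileum -0.07 ± 0.29 (SE). Kif20a, a mitotic kinesin, differed by -1.15 ± 0.35 (SE) in duodenum and rose by 1.49 ± 0.20 (SE) in liver.

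In the list of S phase and DNA replication, 25 of 26 genes tested were below 0 in duodenum with a median of -0.83 and 14 at an unadjusted p under 0.05, and in liver 22 of 29 rose and 2 fell with a median of 0.58. Pcna, the clamp that holds DNA polymerase on its template, differed by -1.57 ± 0.50 (SE) in duodenum and rose by 0.50 ± 0.16 (SE) in liver. Mcm7, a subunit of the replicative helicase, differed by -1.35 ± 0.43 (SE) and rose by 0.66 ± 0.17 (SE). In ileum, where the members also stayed near sham, the 2 lists had medians of 0.02 and -0.04. With WUSTL0717 against vehicle in liver the medians were -0.40 for G2 and mitosis, with 22 of 22 below 0 and none at an adjusted p under 0.05, and -0.18 for S phase.

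The replication-independent histones, which are made outside S phase and have poly(A) tails, had a median of -0.83 in duodenum, with 3 of 10 at an unadjusted p under 0.05, and of 0.42 in liver, where 7 of 11 rose. H2az1, a variant of H2A, differed by -1.73 ± 0.74 (SE) in duodenum and rose by 0.42 ± 0.14 (SE) in liver. Cenpa, the H3 variant of centromeres, differed by -0.93 ± 0.40 (SE) and rose by 0.57 ± 0.16 (SE). Histone chaperones and importers had medians of -0.61 and 0.35, with 7 of 17 at an unadjusted p under 0.05 in duodenum and 11 of 18 risen in liver, among them Asf1b, which hands H3 and H4 to assembly factors, by 0.87 ± 0.17 (SE). Factors of histone mRNA processing and decay had medians of -0.77 and 0.24, with 4 of 20 at an unadjusted p under 0.05 in duodenum and 7 of 21 risen in liver. The liver share and median were no higher than those of all genes. The 7 included Snrpg, a core protein of small nuclear ribonucleoproteins, which rose by 0.45 ± 0.12 (SE). Other RNAs without a poly(A) tail had medians of -0.65 in duodenum, with 1 of 11 at an unadjusted p under 0.05, and 0.51 in liver, with 2 of 11 risen, shares below those of all genes. Mitochondrial transcripts had medians of 0.23 in duodenum and -0.47 in liver, where 8 of 13 fell, against 4.47% of all genes.

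**Figure D5:**
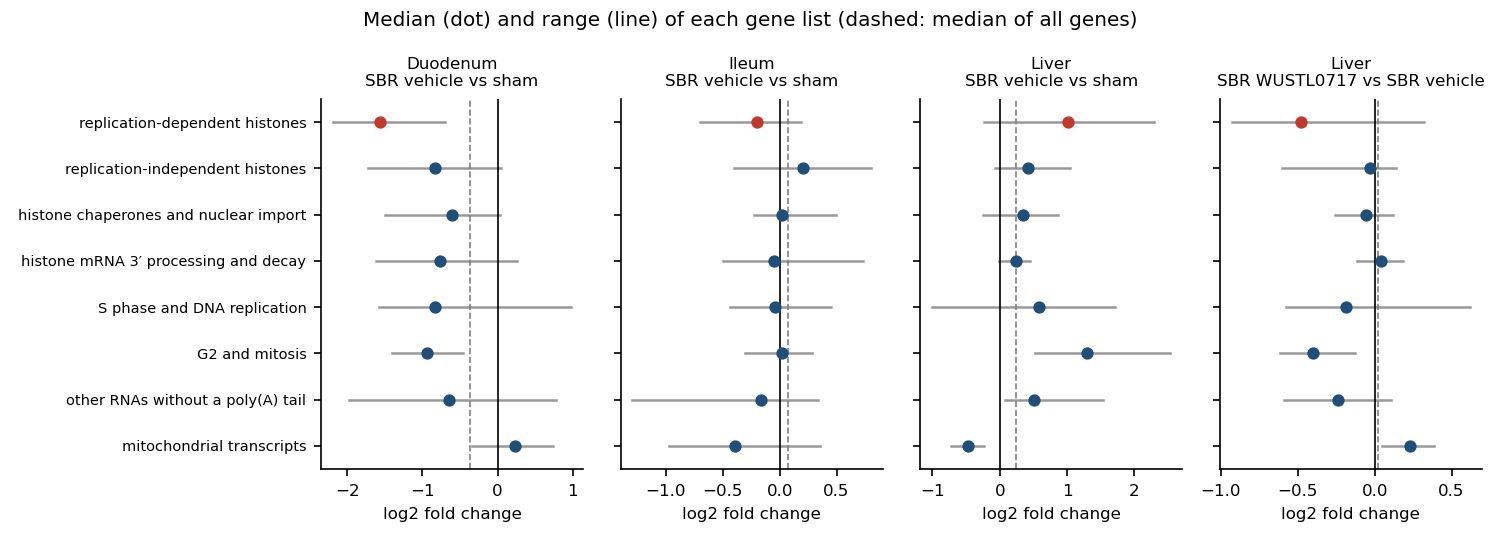
Median log2 difference of SBR vehicle from sham for the members and for the lists of related genes in duodenum, ileum and liver, and of SBR WUSTL0717 from SBR vehicle in liver, with lines for the range of the genes and a dashed line at the median of all genes tested. The members lie at -1.57, -0.20, 1.01 and -0.48, and the list of G2 and mitosis at -0.94, 0.02, 1.30 and -0.40.

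Markers of other cells also differed in value between these groups, although none passed an adjusted p under 0.05 in duodenum. There, after SBR, 6 of 7 crypt stem cell markers and 6 of 8 Paneth cell markers were below 0, against 70% of all genes, with medians of -1.21 and -1.33 where that of all genes was -0.36. At an unadjusted p under 0.05, 4 of 7 and 6 of 8 were lower, against 12.7% of all genes. Of the enterocyte markers 8 of 9 were above 0, with a median of 0.48, and 3 of 9 were higher at an unadjusted p under 0.05, against 3.41% of all genes. The mean over crypt stem cell markers was 2.99, 2.86 and 3.62 in sham and 2.91, 2.32, 1.88 and 1.99 in SBR vehicle, in which SBR vehicle 1 again lay nearest to sham. The mean over pancreatic acinar markers was 7.33, 6.22 and 3.47 in sham, 1.74, 6.71, 3.64 and 3.65 in SBR vehicle and 6.46, 5.82, 4.40 and 7.49 in SBR WUSTL0717, whereas ileal libraries were between -0.63 and -0.53. Markers of neutrophils and macrophages had a median of -1.22, with 5 of 5 below 0. The part of these cell types in the duodenal values was not tested.

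In liver after SBR, where 37.4% of all genes rose and 4.47% fell, all 5 cholangiocyte markers and 5 of 6 stellate cell markers rose, with medians of 2.14 and 1.34, and 4 of 6 neutrophil and macrophage markers rose, with a median of 1.06. Of the hepatocyte markers 3 of 7 fell, and the median was -0.42. The mean over cholangiocyte markers was between 3.22 and 4.11 in sham, 5.54 and 6.35 in SBR vehicle and 4.65 and 5.81 in SBR WUSTL0717. With WUSTL0717 against vehicle, where 2.66% of all genes fell, 4 of 5 cholangiocyte markers fell, with a median of -0.95, and 3 of 6 stellate cell markers fell, with a median of -0.40. The part of these cell types in the liver values of the members was not tested.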

How the data were processed

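RNA from duodenum, ileum and liver of 40 libraries was depleted of ribosomal RNA with RNase H, primed with random hexamers and sequenced as paired reads of 150 bases. The authors aligned reads with STAR to GRCm38, counted unique, unambiguous reads with featureCounts, computed TMM size factors in edgeR, and separately loaded TPM values into R and deposited them as log2 TPM after ComBat correction for batch, with intestine in batch 1 and liver in batch 2. The value added before the logarithm is not given in the sources used here. ComBat rescales the spread of a gene within a batch as well as its mean, and 2752 deposited values were below 0. Small values, differences between batches and the size of differences within a tissue are therefore altered. Unique counting also removes reads from near-identical histone copies, but whether the TPM values rest on those counts is not stated.

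Genes whose log2 TPM averaged 1 or more over the libraries of a tissue were fitted with limma (3.58.1, R 4.3.3, with variance trend), 1 fit of the 3 groups per tissue and 1 of the 22 intestinal libraries, and p-values were adjusted by the Benjamini-Hochberg method over all genes tested. The study itself used unpaired tests of 2 groups, which were run as an alternative. All p-values are two-sided. Where nothing says that libraries are separate animals, p-values measure the spread between libraries. On simulated data with 200 genes changed by 2 log2 units, the fit recovered 37.5% for duodenum SBR vehicle against sham among 15093 genes, 70% for ileum, 98% for liver and 53% for duodenum against ileum in sham.

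The members, gene lists and tests were chosen with earlier results of these data known. Named were, per histone type, the 3 members with the highest mean over intestinal libraries and that with the smallest p in duodenum after SBR, per comparison up to 5 members with the smallest adjusted p under 0.05 and the smallest p in each direction, and at most 3 genes of each list. Other members in the text, in the printed sequences and in the neighbouring pairs illustrate features described there. Alternatives were other filters, pseudocounts, scalings, tests, sets of libraries and a replicate block. Values were tabulated and drawn with Python 3.11.15, pandas 2.3.3 and matplotlib 3.10.9.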

Additional observations from a re-analysis of the deposited data

Results flagged for a closer look

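In groups of 4 to 10 libraries, 238 sets of values were searched for a library far from the others of its group, and 14 were found, where chance gives about 1 in 20. Among them, 5 were in the fourth duodenal library with WUSTL0717, which had an H2B mean of 1.86 log2 TPM where the others lay between 3.01 and 3.13, and in which H2bc13 was 1.65 (2.85 to 3.06 in the others), H2bc15 2.33 (3.77 to 3.99), H2bc9 0.91 (1.82 to 2.00) and H4c4 5.36 (6.22 to 6.32). The third ileal library with WUSTL0717 had an H1 mean of 5.54 where the others lay between 6.36 and 6.47, and in it H2ac4 was 5.09 (5.54 to 5.63), H4c6 7.64 (8.12 to 8.16) and H4c8 8.22 (9.12 to 9.30). H2bc11 was 4.03 in duodenum SBR vehicle 1 and 1.92 to 2.19 in the other libraries of that group. In liver, H2bc4 was 6.67 in SBR vehicle 2 (7.09 to 7.47), H2ac20 was 4.29 in SBR WUSTL0717 3 (4.78 to 4.96), H3c8 was 4.07 in sham 4 (3.55 to 3.68), and the H4 mean was 6.32 in SBR WUSTL0717 4 (6.12 to 6.17).

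The mean over all members after SBR with vehicle moved in opposite directions in 2 tissues. It was lower than sham by a log2 difference of -1.45 in duodenum, in every SBR library, and higher by 1.03 in liver, in every SBR library. The difference between the tissues was not tested, since tissue and batch cannot be told apart.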

How the results depend on the processing

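The direction of the median over the members was kept under every alternative in duodenum, ileum and liver after SBR with vehicle. Leaving out 1 library at a time, that median ran from -1.98 to -1.21 in duodenum, -0.35 to -0.02 in ileum and 0.94 to 1.09 in liver, and for WUSTL0717 against vehicle from -0.10 to 0.59, -0.23 to 0.09 and -0.57 to -0.36. For WUSTL0717 against sham it ran from -1.58 to -1.15, -0.41 to -0.08 and 0.44 to 0.69, for duodenum against ileum from -1.19 to -0.93 in sham, -2.78 to -2.10 in SBR vehicle and -2.35 to -1.998 in SBR WUSTL0717, and for the difference between the regions from -1.68 to -1.04 for SBR and -0.11 to 0.66 for WUSTL0717. Counts of members with an adjusted p under 0.05, with the range of the share of all genes called the same way in parentheses, ran from 0 to 22 lower for duodenum SBR vehicle against sham (0 to 3.5%; 22 without SBR vehicle 1), 35 to 40 higher for liver SBR vehicle against sham (28.9% to 52.3%), 0 to 7 lower for WUSTL0717 against vehicle in liver (0.333% to 5.22%; 7 without SBR vehicle 2 or SBR WUSTL0717 4), 13 to 25 higher for WUSTL0717 against sham in liver (14.8% to 29.9%; 13 without SBR WUSTL0717 4), 0 to 5 lower for duodenum against ileum in sham (5.14% to 8.88%; 0 without ileum sham 1), 46 to 47 in SBR vehicle (41.1% to 55.2%), 41 to 46 in SBR WUSTL0717 (39.5% to 50.3%), and 0 to 2 for the difference between the regions after SBR (0.00629% to 1.25%). Counts at an unadjusted p under 0.05 ran from 25 to 42 (5.87% to 25.6%), 36 to 40 (36.5% to 56.3%) and 15 to 33 (6.11% to 12.9%) for the first 3 of these, and from 19 to 31 lower for WUSTL0717 against sham in duodenum (4.94% to 16.8%), 24 to 30 higher in liver (31.7% to 44.7%), 8 to 28 lower for duodenum against ileum in sham (16.7% to 25.5%) and 9 to 36 for the difference after SBR (6.68% to 22.7%).

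With the share of all genes called the same way in parentheses, library weights called 34 members lower in duodenum after SBR (15.2%), 14 for WUSTL0717 against sham there (5.04%), 29 for WUSTL0717 against vehicle in liver (13.8%), 28 for duodenum against ileum in sham (28.2%) and 26 for the difference between regions (11.7%), whose median for WUSTL0717 was 0.70. Quantile normalization called 1 member lower for WUSTL0717 against sham in duodenum (0.298%), 25 lower for WUSTL0717 against vehicle in liver (8.48%), 13 against sham there, of which 12 higher (11.2%) and 1 lower (8.81%), and 3 lower for duodenum against ileum in sham (6.78%). Its medians were 0.29 for WUSTL0717 against sham in liver, -1.71 and -1.42 for duodenum against ileum in SBR vehicle and SBR WUSTL0717, and -0.91 for the difference after SBR. Centring on library medians called 21 members for WUSTL0717 against vehicle in liver, of which 20 lower (8.19%) and 1 higher (11.5%), 15 against sham, of which 13 higher (10.7%) and 2 lower (8.93%), and 1 lower for duodenum against ileum in sham (5.29%). Its medians were 0.71 for liver after SBR, 0.29 for WUSTL0717 against sham in liver, -0.55, -1.55 and -1.33 for duodenum against ileum in sham, SBR vehicle and SBR WUSTL0717, and -0.88 for the difference after SBR. A pseudocount of 5 called 13 lower for duodenum against ileum in sham (12.3%), with medians of -1.997 in SBR vehicle and -0.94 for the difference after SBR. For WUSTL0717 against vehicle in liver, 0 members passed with the 2 groups alone, no filter, no trend, a pseudocount of 0.1 or the unmoderated test, 2 were lower with a filter of 3 (1.83%) and 3 with the replicate block (2.24%). The cause of these changes was not tested.

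Replicate numbers were not taken as pairs. Same-numbered libraries of different groups had median correlations of their deviations from the group means of -0.014, -0.035 and -0.005 within duodenum, ileum and liver. Between duodenum and ileum libraries of the same group and number these ran from -0.136 to 0.447 with a median of 0.083, and 5 of 11 were over 0.1, against 8 of 30 with other numbers. With the replicate block the counts with an adjusted p under 0.05 were 35 of 47 higher for liver SBR vehicle against sham (30.6% of all genes, against 37.4% without it), 3 lower for WUSTL0717 against vehicle (2.24% against 2.66%) and 28 higher against sham in liver (37.2% against 27.9%), and 9 lower for duodenum against ileum in sham (9.28% against 10.8%), and the other counts of members were as without it. Depth is unknown, and small values are limited by the unknown value added before the logarithm.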
